A study of Mus musculus with 18 samples.

Results

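The genes that differed from vehicle after 6 h of TWEAK while NIK was inhibited were described in primary murine renal proximal tubulo-interstitial epithelial cells (RPTEC). TWEAK is a cytokine of the TNF family, and NIK SMI1 is a small molecule inhibitor of NIK. The comparison was chosen by treatment and time from the sample labels, and set the 3 samples that received TWEAK together with NIK SMI1 for 6 h against the 3 samples that received vehicle for 6 h. These are 6 of the 18 samples of the series. All samples came from commercially supplied cells of the C57BL/6 strain, grown in the supplier's epithelial medium. The inhibited group received recombinant mouse TWEAK at 100 ng/mL and NIK SMI1 at 3 μM, and the vehicle group received DMSO. Another group at 6 h received TWEAK at 100 ng/mL without the inhibitor, and the same treatments were repeated for 24 h, with 3 samples in every group. No group received NIK SMI1 alone, so a change caused by the compound itself and a remaining response to TWEAK cannot be told apart. In such cells the paper reports processing of p100 to p52, a step that needs NIK, as reduced by NIK SMI1. NIK activity left in these samples was not measured, and its part in the changes below was not tested. The labels name no separate animals or cell preparations, and the p-values therefore measure only the spread between these cultured samples.

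TWEAK binds its receptor Fn14, which recruits TRAF adaptors and the cIAP ubiquitin ligases and can start both branches of NF-κB signaling. In the canonical branch the IKK complex removes IκB inhibitors from p65 and p50 dimers. In the non-canonical branch NIK, which TRAF3 and the cIAP proteins otherwise send for degradation, accumulates, activates IKKα and leads to processing of p100 to p52, the partner of RelB. TNF family receptors can also signal to the JNK and p38 kinases and so to AP-1 transcription factors.

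Each of the 6 samples held between 18040966 and 51956444 counted reads, with the lowest total in NIK SMI1 sample 3. Levels are given in CPM, the counts scaled to a common library size (TMM). 3 reads correspond to 0.0577 to 0.166 CPM in these samples. Spearman correlations across the 15521 tested genes were between 0.996 and 0.998 within the groups and between 0.994 and 0.996 across them, as a description over genes that are not independent. Epithelial genes were strongly read in every sample, and Cdh1, the epithelial cadherin, lay between 1372 and 1460 CPM. Defining genes of proximal tubule cells were low. Slc34a1 and Slc22a6, a phosphate and an organic anion transporter, were at 0 in all 6 samples, and Lrp2, which encodes megalin, lay between 0.113 and 0.47 CPM. Of the 8 listed proximal tubule genes, 3 had more than 10 reads in every sample. These were Slc5a2, a glucose transporter, at 6.04 to 8.03 CPM, Cubn, which encodes cubilin, at 2.15 to 3.55 CPM, and Ggt1, a glutamyltransferase, at 1.28 to 2.14 CPM. The summed level of the 8 was 11.6 to 12.9 CPM with vehicle and 11.3 to 12.6 CPM with TWEAK and NIK SMI1. Low reads from 8 tested genes of pancreatic islets were present at like levels in both groups, with a summed level over the 10 listed genes of 21.4 to 26.0 CPM with vehicle and 21.5 to 23.6 CPM with TWEAK and NIK SMI1. By edgeR and by DESeq2 0 of the 8 passed the test at 6 h, and 0 had an unadjusted p below 0.05. The source of the islet reads was not tested. In such bulk samples fewer cells of a type and less RNA per cell cannot be told apart. Leukocyte genes were near 0 apart from Cd68 and Csf1r, and the summed level of the 9 listed genes was 19.1 to 19.9 CPM and 19.3 to 19.5 CPM in the same order.

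With TWEAK and NIK SMI1 together, many genes differed from vehicle at 6 h, mostly by small amounts. Of the 15521 genes with more than 10 reads in at least 4 of the 18 samples, 1122 were higher than with vehicle and 1040 were lower (edgeR quasi-likelihood test, Benjamini-Hochberg adjusted p below 0.05). This is a background of 7.23% of all tested genes called higher and 6.7% called lower, against which the counts for single functions below can be read. The median of all tested genes was -0.0009 on the log2 scale. Among the 2162 called genes, 1901 (87.9%) changed by no more than 1.5-fold. Only 75 genes (0.483% of those tested) rose and 16 (0.103%) fell by more than 2-fold. In 72 of the 75 genes that rose more than 2-fold, all 3 samples with TWEAK and NIK SMI1 lay above all 3 vehicle samples. In 15 of the 16 that fell more than 2-fold they lay below. Over all 15521 tested genes they lay above in 2058 and below in 1965. The 75 and 16 genes were selected on these same samples, so their separation is no further evidence. When only these 6 samples were fitted, 662 genes were higher and 559 lower. The number of lower genes was 676 without vehicle sample 1 and 623 without NIK SMI1 sample 2.

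Among called genes whose groups did not overlap and whose higher group had a mean of at least 1 CPM, the 10 with the largest increases were led by signaling and chemokine genes. Genes below that level, such as Ccl2, Tnfsf15 and Pglyrp2 described with their lists, are not ranked here. The largest was Ccl9 (Entrez Gene 20308), a CC chemokine that attracts myeloid cells. Its levels were 1.14, 1.28 and 1.09 CPM in the vehicle samples and 9.37, 8.84 and 10.1 CPM with TWEAK and NIK SMI1, an 8.05-fold difference (log2 fold change 3.01 ± 0.11 SE, adjusted p = 3.73e-17 by edgeR). The groups did not overlap, and the 3 samples with TWEAK alone were far higher still, at 49.2, 44.1 and 50.2 CPM. Traf1 (22029), an adaptor of TNF receptor complexes, was at 1.64, 1.14 and 0.839 CPM with vehicle and 6.45, 6.38 and 5.81 CPM with TWEAK and NIK SMI1 (5.46-fold, log2 fold change 2.45 ± 0.14, adjusted p = 8.65e-13). Cxcl10 (15945), a chemokine for activated T cells, rose from 0.47, 0.435 and 0.644 CPM to 2.72, 1.77 and 2.65 CPM (4.48-fold, adjusted p = 8.14e-08). Il23a (83430), the p19 subunit of interleukin-23, rose from 7.35, 6.33 and 6.34 CPM to 23, 23.7 and 25 CPM (3.59-fold, adjusted p = 1.03e-15). The remaining 6 were Nfkbie and Birc3, described with their pathway below, and 4 genes with fewer reads: Syt2, which encodes a calcium sensor of vesicle release (3.66-fold), Msc, a transcriptional repressor (3.48-fold), Calcb, a calcitonin gene-related peptide (3.21-fold), and Gata3, a transcription factor of the renal collecting system (3.01-fold). Their adjusted p lay between 1.19e-06 and 4.5e-05 by edgeR, and all 10 kept adjusted p below 0.05 in every alternative fit.

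Under the same limits, 9 of the 10 largest decreases were in genes with few reads, of 1.0 to 3.87 CPM on average with vehicle, and the other was Dhrs3. Called genes below 1 CPM are not ranked here either. Pdzrn3 (55983), which encodes a PDZ domain ubiquitin ligase, fell from 2.28, 2.07 and 2.18 CPM with vehicle to 0.774, 0.987 and 0.508 CPM with TWEAK and NIK SMI1 (log2 fold change -1.48 ± 0.23, adjusted p = 4.57e-05). Dhrs3 (20148), an enzyme that returns retinaldehyde to retinol, fell from 25.5, 23.5 and 27.3 CPM to 12.3, 15.6 and 12.6 CPM (log2 fold change -0.92 ± 0.094, adjusted p = 4.68e-08). Clca3a2, a gene of the chloride channel accessory family, fell by 1.03 on the log2 scale (adjusted p = 0.000262), and the unnamed locus of Entrez Gene 102633864 by 1.15 (adjusted p = 0.00169). With TWEAK alone, Pdzrn3, Dhrs3 and Clca3a2 differed from the same vehicle samples by -1.34, -1.06 and -1.18 on the same scale. The other 6 of these 10, all with at most 1.21 CPM on average with vehicle, were Krt6a, Ifi27l2b, Npy1r, Gprin3, Galnt18 and the microRNA locus Mir2139. Each of them lost its call on leaving out 1 sample. For Krt6a this was vehicle sample 1 or NIK SMI1 sample 1, for Ifi27l2b vehicle sample 3 or NIK SMI1 sample 1 or 2, and for Npy1r vehicle sample 3 or NIK SMI1 sample 2 or 3. For Gprin3 it was vehicle sample 1 or 3 or NIK SMI1 sample 1 or 2, for Galnt18 vehicle sample 2 or any NIK SMI1 sample, and for Mir2139 vehicle sample 1 or NIK SMI1 sample 1 or 2. Over all alternatives their adjusted p reached between 0.0608 and 0.197 by edgeR or DESeq2.

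**Figure D1:**
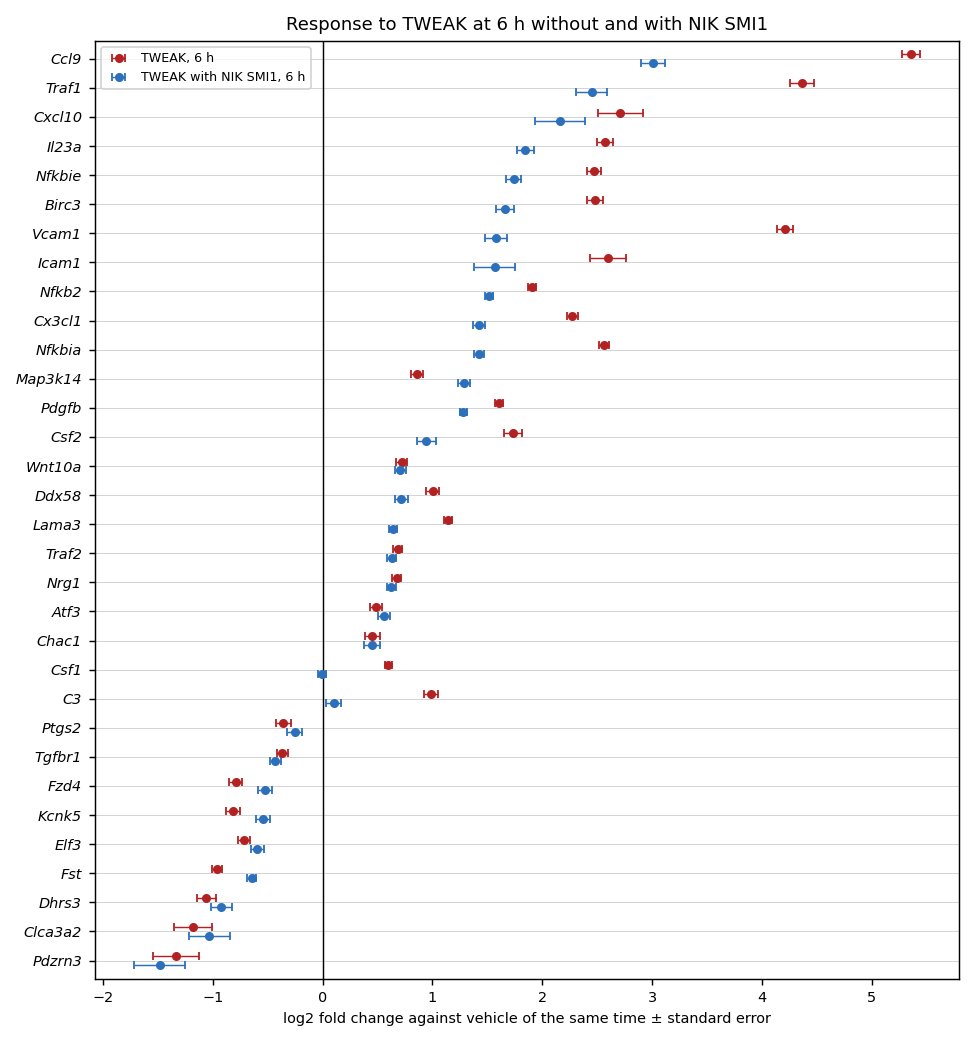
log2 fold change against the vehicle samples at 6 h (horizontal axis) for 32 genes (rows), with TWEAK alone in red and with TWEAK and NIK SMI1 in blue. Points are edgeR estimates, bars are standard errors, and both colors share the same 3 vehicle samples. Map3k14 is further right with the inhibitor, Traf2, Nrg1, Wnt10a, Atf3 and Chac1 lie close together, and Csf1 and C3 lie near 0 in blue only.

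The NF-κB subunits and their IκB inhibitors had the largest share of changed genes among the 34 function lists. Of 11 tested members, 8 were higher than with vehicle and 0 lower, with a median log2 difference of 0.56 against -0.0009 over all tested genes. All 5 subunit genes rose. Nfkb2 (18034), which encodes p100 and p52, was at 145, 154 and 149 CPM with vehicle and 425, 442 and 412 CPM with TWEAK and NIK SMI1 (log2 fold change 1.52 ± 0.037, adjusted p = 1.51e-20). The 2 groups were far apart and the spread within each was small. Relb, its partner in the non-canonical dimer, was at 43.6, 43.5 and 42.4 CPM and 64, 67.9 and 64.9 CPM (log2 fold change 0.60 ± 0.047, adjusted p = 2.56e-10). Of the canonical subunits, Nfkb1, which encodes p105 and p50, rose by 0.48 ± 0.033 and Rela, which encodes p65, by 0.28 ± 0.032 on the log2 scale (adjusted p = 2.66e-11 and 2.88e-07). Rel, encoding c-Rel, rose by 0.56 (adjusted p = 0.0166), a call that was lost without NIK SMI1 sample 2 (adjusted p 0.00979 to 0.0618 over all alternatives by edgeR or DESeq2).

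Among the IκB genes, Nfkbia (18035) encodes IκBα, the rapidly resynthesized inhibitor of canonical dimers. It was at 30.3, 29.7 and 30.1 CPM with vehicle and 80.1, 84.2 and 76.9 CPM with TWEAK and NIK SMI1 (log2 fold change 1.42 ± 0.046, adjusted p = 5.81e-18). Nfkbie (18037), encoding IκBε, was at 11.5, 12.2 and 11.3 CPM and 37.5, 39.2 and 40.6 CPM (log2 fold change 1.74 ± 0.069, adjusted p = 3.31e-16). Both inhibitor genes were thus well above every vehicle sample. Nfkbib, the third IκB gene that rose, did so by 0.39 (adjusted p = 0.000111) and is named here after its values were seen. Bcl3, an IκB-like coactivator, had a log2 difference of 0.19 and did not pass the test (adjusted p = 0.161). Although these genes were still raised, 7 of the 11 were lower than with TWEAK alone and 0 were higher, in the test of the inhibited against the TWEAK samples. In that comparison 829 of all tested genes (5.34%) were higher and 885 (5.7%) lower, and the number higher was 488 without TWEAK sample 1 and 513 without NIK SMI1 sample 2. TWEAK sample 1 stood apart in islet transcripts, with a summed level of 40.7 CPM against 22.8 and 21.7 CPM in the other TWEAK samples, and their part in that comparison was not tested. Without it 6 of the 11 NF-κB and IκB genes were lower and 0 higher, and of the lists below 6 ubiquitin feedback, 5 chemokine and 9 MHC class I genes were lower, 6 AP-1 list genes were higher and 7 lower, and 23 sterol and fatty acid genes were higher. The difference was -1.14 for Nfkbia and -0.39 for Nfkb2 on the log2 scale (adjusted p = 9.52e-17 and 9.49e-09).

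The promoters of Nfkbia, Nfkb2, Nfkbie and the chemokine gene Cxcl10, which all rose, are shown as examples that hold a match to the NF-κB consensus, as did that of Ccl9. Each line gives 250 bases before an annotated RefSeq start (GRCm38.p6), 5′ to 3′ on the strand of the gene, and capitals mark matches to the 10-base NF-κB consensus on either strand, overlapping matches joined. Nfkbia lies on the minus strand at chr12:55492648-55492897, Nfkb2 on the plus strand at chr19:46304487-46304736 (the first of 3 annotated starts), Nfkbie on the plus strand at chr17:45555450-45555699, and Cxcl10 on the minus strand at chr5:92348890-92349139.
Nfkbia: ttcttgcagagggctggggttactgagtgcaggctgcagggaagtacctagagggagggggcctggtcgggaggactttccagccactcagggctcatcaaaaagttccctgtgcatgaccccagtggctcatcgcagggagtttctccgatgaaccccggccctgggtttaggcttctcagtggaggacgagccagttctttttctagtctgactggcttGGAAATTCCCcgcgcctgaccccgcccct
Nfkb2: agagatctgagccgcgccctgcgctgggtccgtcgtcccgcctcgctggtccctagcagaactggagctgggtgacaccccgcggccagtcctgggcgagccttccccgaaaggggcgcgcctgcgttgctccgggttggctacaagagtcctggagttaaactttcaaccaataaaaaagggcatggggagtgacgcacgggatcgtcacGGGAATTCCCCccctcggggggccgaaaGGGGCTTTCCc
Nfkbie: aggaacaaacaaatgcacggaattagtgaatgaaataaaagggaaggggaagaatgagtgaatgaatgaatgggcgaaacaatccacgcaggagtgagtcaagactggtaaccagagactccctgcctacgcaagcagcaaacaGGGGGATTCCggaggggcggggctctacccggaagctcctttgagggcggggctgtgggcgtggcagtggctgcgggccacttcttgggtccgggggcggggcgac
Cxcl10: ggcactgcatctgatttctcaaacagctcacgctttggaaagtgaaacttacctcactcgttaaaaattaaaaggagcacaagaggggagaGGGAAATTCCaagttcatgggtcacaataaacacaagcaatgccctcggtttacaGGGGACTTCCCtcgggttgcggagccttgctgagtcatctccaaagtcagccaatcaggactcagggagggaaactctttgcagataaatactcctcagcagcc
The same 250 bases held a match in 1209 of the 11228 tested genes with a sequence (10.8%). They held one in 125 of 865 genes that rose (14.5%), in 11 of 51 that rose more than 2-fold (21.6%) and in 90 of 771 that fell (11.7%). The AP-1 element TGANTCA, searched in the same windows on both strands, was found in 669 of the 11228 (5.96%), in 72 of the 865 (8.32%), in 9 of the 51 (17.6%) and in 52 of the 771 (6.74%). Among the AP-1 and immediate early genes that rose, 1 of 9 with a sequence held it. No match was found in the windows of Traf1, Icam1 and Birc3, which says only that these letters are not in these windows. The reads themselves were counted on an earlier build, so these positions were used for sequence only.

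**Figure D2:**
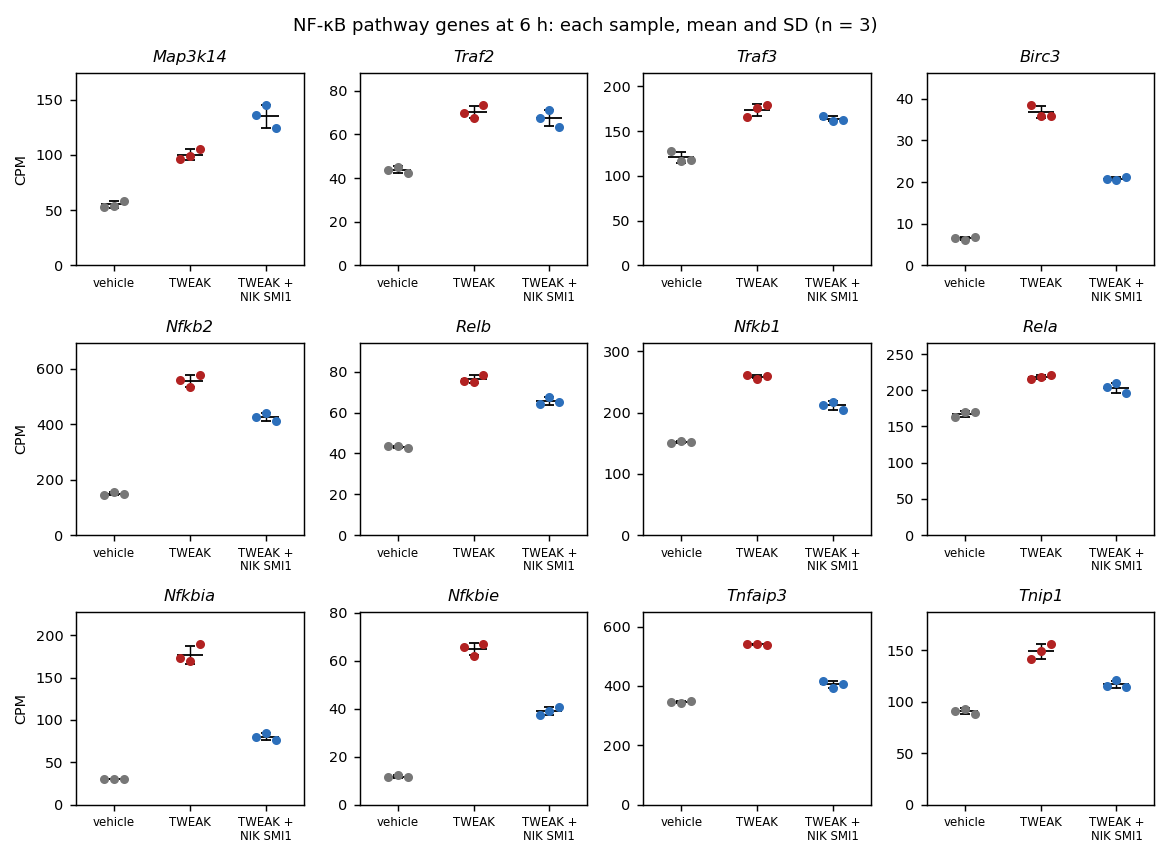
CPM (vertical axes, starting at 0) of 12 NF-κB pathway genes at 6 h with vehicle (gray), TWEAK (red) and TWEAK with NIK SMI1 (blue). Points are the 3 samples of a group, and black marks give the mean and SD. The blue samples lie above all gray ones in each panel, and Map3k14 is the one panel in which they also lie above the red ones.

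Genes that control NIK itself rose as well. Of the 15 tested genes of the NIK and IKK module, 8 were higher and 0 lower, and these 8 included all 6 listed genes of NIK turnover. Map3k14 (53859), the gene of NIK, was at 53.2, 54 and 58.6 CPM with vehicle, 96.5, 99.1 and 106 CPM with TWEAK and 136, 145 and 124 CPM with TWEAK and NIK SMI1. It was 2.44-fold higher with the inhibitor than with vehicle (log2 fold change 1.29 ± 0.055, adjusted p = 1.54e-15). It was also higher than with TWEAK alone, by 0.43 on the log2 scale (95% interval 0.32 to 0.54, adjusted p = 1.3e-06 by edgeR). Birc3 (11796), encoding the ubiquitin ligase cIAP2, rose from 6.58, 6.23 and 6.9 CPM to 20.8, 20.4 and 21.2 CPM (log2 fold change 1.66 ± 0.082, adjusted p = 3.01e-14), and Birc2, encoding cIAP1, rose by 0.49 ± 0.069 (adjusted p = 8.07e-06). Traf2 and Traf3, the adaptors that hold NIK in the degradation complex, were at 67.6, 70.9 and 63.5 CPM and 167, 162 and 163 CPM against 43.8, 45.2 and 42.1 CPM and 127, 116 and 118 CPM with vehicle (log2 fold change 0.63 and 0.44, adjusted p = 5.14e-11 and 1.52e-09). Neither adaptor passed the test against TWEAK alone (adjusted p = 0.482 and 0.177), where the 95% intervals of the difference, before adjustment, were -0.15 to 0.033 for Traf2 and -0.16 to -0.006 for Traf3 on the log2 scale. Tnfrsf12a, which encodes the receptor Fn14, was at 497 ± 14.6 CPM (mean ± SD, n = 3) with vehicle and 533 ± 30.3 CPM with TWEAK and NIK SMI1 and did not pass the test (adjusted p = 0.0857). It passed with no filter on low counts and without NIK SMI1 sample 3 (adjusted p 0.0209 to 0.462 over all alternatives by edgeR or DESeq2).

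The list of ubiquitin feedback regulators and adaptors, not all of which limit signaling to IKK, was another with increases only. Of 19 tested members 9 were higher and 0 lower, and 7 of the 19 were lower than with TWEAK alone. Tnfaip3, which encodes A20, was at 345, 343 and 348 CPM with vehicle and 416, 392 and 407 CPM with TWEAK and NIK SMI1, a modest rise without overlap (log2 fold change 0.23 ± 0.034, adjusted p = 1.56e-05). Tnip1, a partner of A20, and Tank, a TRAF-binding adaptor, rose by 0.36 and 0.41 on the log2 scale (adjusted p = 6.71e-08 and 7e-06).

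Chemokine genes were called higher more often than lower. Of the 29 listed chemokine genes, 16 had enough reads to be tested, and 6 of these were higher and 1 lower than with vehicle, with a median log2 difference of 0.47. Besides Ccl9 and Cxcl10, Cx3cl1 (20312), the membrane-bound chemokine fractalkine, rose from 36.8, 36.4 and 37.9 CPM to 98.1, 102 and 98.9 CPM (log2 fold change 1.42 ± 0.052, adjusted p = 4.67e-17). Cxcl16, which attracts CXCR6-bearing lymphocytes, rose from 198, 213 and 198 CPM to 356, 359 and 326 CPM (log2 fold change 0.77 ± 0.038, adjusted p = 3.01e-14). Ccl2, the monocyte chemokine, had few reads, with 0.101, 0.109 and 0.117 CPM with vehicle and 0.373, 0.699 and 0.734 CPM with TWEAK and NIK SMI1 (adjusted p = 0.000658). Ccl5 showed overlapping groups, at 0.134, 0.272 and 0.293 CPM and 0.745, 0.288 and 0.339 CPM, and did not pass the test (adjusted p = 0.127). The 1 chemokine gene that fell was Cxcl5, a neutrophil chemokine, by 0.73 (adjusted p = 0.0251), named after its values were seen. Its call was lost in the fit to the 6 samples alone and without vehicle sample 1 or 3 or NIK SMI1 sample 1 or 2 (adjusted p 0.00347 to 0.192 over all alternatives by edgeR or DESeq2). Compared with TWEAK alone, 6 of the 16 genes were lower and 0 higher.

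Cytokine genes moved in both directions, with 5 of 19 tested members higher and 3 lower. Csf2, encoding GM-CSF, rose from 6.98, 8.59 and 7.59 CPM to 14.3, 15.8 and 14.6 CPM (log2 fold change 0.94 ± 0.087, adjusted p = 8.47e-09). Il33, an alarmin of epithelial nuclei, fell from 8.39, 9.35 and 8.6 CPM to 6.19, 5.47 and 4.85 CPM (log2 fold change -0.65 ± 0.13, adjusted p = 0.00118), and Kitl, the ligand of the receptor KIT, fell by 0.44 (adjusted p = 0.00206). Csf1, the macrophage growth factor, stood at 109.9, 114 and 114 CPM with vehicle and 117, 109 and 109 CPM with TWEAK and NIK SMI1 and did not pass the test (adjusted p = 0.956), whereas TWEAK alone gave 171, 168 and 171 CPM. The difference between the samples with and without the inhibitor was -0.60 on the log2 scale (adjusted p = 9.29e-13).

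In the TNF superfamily, 6 of 23 tested ligand and receptor genes were higher and 3 lower. Ngfr, the low-affinity neurotrophin receptor, rose from 4.36, 4.49 and 4.64 CPM to 9.66, 8.97 and 8.24 CPM (log2 fold change 1.0 ± 0.094, adjusted p = 1.11e-08). The ligand gene Tnfsf15 was at 0.168, 0.0816 and 0.215 CPM and 0.774, 0.823 and 0.564 CPM (adjusted p = 0.000654), levels that rest on few reads with vehicle. Cd40 rose from 1.48 ± 0.038 CPM to 2.17 ± 0.322 CPM (mean ± SD, n = 3, adjusted p = 0.0191 by edgeR), and this call was lost without NIK SMI1 sample 1 or 2 (adjusted p 0.00944 to 0.119 over all alternatives by edgeR or DESeq2). The number of higher genes in the list was 3 without vehicle sample 2 or NIK SMI1 sample 1 and 2 without NIK SMI1 sample 2.

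Leukocyte adhesion genes rose in 7 and fell in 2 of 14 tested members. Vcam1 (22329), which binds integrins of lymphocytes and monocytes, was at 4.13, 4.05 and 4.31 CPM with vehicle and 11.7, 12.1 and 14.2 CPM with TWEAK and NIK SMI1 (log2 fold change 1.58 ± 0.097, adjusted p = 2.49e-12). With TWEAK alone it reached 82.6, 72.3 and 77.2 CPM, and the inhibited samples were lower by 2.63 on the log2 scale (adjusted p = 8.18e-20). Icam1, a ligand of leukocyte β2 integrins, rose from 1.17, 1.28 and 1.13 CPM to 4.07, 2.84 and 3.55 CPM (log2 fold change 1.57 ± 0.19, adjusted p = 6.14e-07). Cd47, a brake on phagocytosis, rose by 0.63 ± 0.038, and Ceacam1, an adhesion and inhibitory receptor, fell by 0.38 ± 0.08 on the log2 scale (adjusted p = 2.49e-12 and 0.00131). Without vehicle sample 1 or NIK SMI1 sample 2, 1 adhesion gene was lower instead of 2.

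Of 10 receptor, chemokine and target genes singled out in earlier work on these samples, 9 were tested, and 7 of them were higher and 0 lower. This list was chosen on these samples and is no independent evidence of its direction.

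Complement and acute phase genes had fewer calls, with 1 of 15 tested members higher (6.67%) and 0 lower. The 1 gene, Pglyrp2, an amidase for bacterial peptidoglycan, was at 0.134, 0.0544 and 0.078 CPM with vehicle and 0.315, 0.576 and 0.282 CPM with TWEAK and NIK SMI1 (adjusted p = 0.00185) and at 5.13, 4.45 and 4.41 CPM with TWEAK alone. C3, the central complement component, was at 30.3, 30.6 and 33.6 CPM with vehicle and 33.1, 35.5 and 33.1 CPM with the inhibitor, overlapping groups that did not pass the test (adjusted p = 0.365). With TWEAK alone C3 was at 63.8, 59.6 and 65.1 CPM, above the inhibited samples by 0.89 on the log2 scale (adjusted p = 1.64e-10).

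Antigen presentation genes showed small increases. Of 17 tested genes of MHC class I and the immunoproteasome 5 were higher and 0 lower, with a median log2 difference of 0.04, and 10 of the 17 were lower than with TWEAK alone. The class I heavy chain genes H2-K1 and H2-D1 rose by 0.32 ± 0.051 and 0.26 ± 0.04, and the peptide loading genes Tapbp and Tapbpl by 0.29 ± 0.036 and 0.42 ± 0.075 (largest adjusted p = 0.000242). H2-K1 and H2-D1 are near-identical over much of their length, so reads may have been lost or split between them. B2m, the light chain gene, had a difference of -0.046 and did not pass the test (adjusted p = 0.546).

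Of 26 tested interferon regulatory factor, JAK, STAT and SOCS genes 8 were higher and 1 lower, and of 24 interferon-stimulated genes 5 were higher and 0 lower. Irf5 rose from 0.571, 0.68 and 0.566 CPM to 1.12, 1.15 and 1.52 CPM (log2 fold change 1.03 ± 0.27, adjusted p = 0.0104). The cytokine signaling inhibitor Socs1 rose by 0.85 ± 0.14 and the kinase gene Tyk2 by 0.48 ± 0.047 (adjusted p = 8.11e-05 and 2.01e-08). Among interferon-stimulated genes, Rsad2, which encodes the antiviral enzyme viperin, was at 0.269, 0.462 and 0.429 CPM and 0.975, 1.03 and 1.07 CPM (log2 fold change 1.35 ± 0.29, adjusted p = 0.00181). Parp14, an ADP-ribosyltransferase, rose from 13.9, 12.9 and 12.3 CPM to 22.2, 22 and 22 CPM (log2 fold change 0.77 ± 0.064, adjusted p = 1.21e-09). Of the pattern recognition genes, 4 of 22 rose and 3 fell, but 2 rose without NIK SMI1 sample 2 and 1 fell without vehicle sample 1 or 3. Ddx58, which encodes the RNA sensor RIG-I, rose by 0.72 ± 0.06 and Nod2, a sensor of bacterial muramyl dipeptide, by 0.65 ± 0.11 (adjusted p = 1.35e-09 and 0.000204). The Toll-like receptor gene Tlr4 fell by 0.47 (adjusted p = 0.0112 by edgeR). Its call was lost in the fit to the 6 samples alone and without vehicle sample 1 or 3 or NIK SMI1 sample 2. The 1 lower gene of the interferon regulatory factor list lost its call without NIK SMI1 sample 2, and 2 were lower without NIK SMI1 sample 3.

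**Figure D3:**
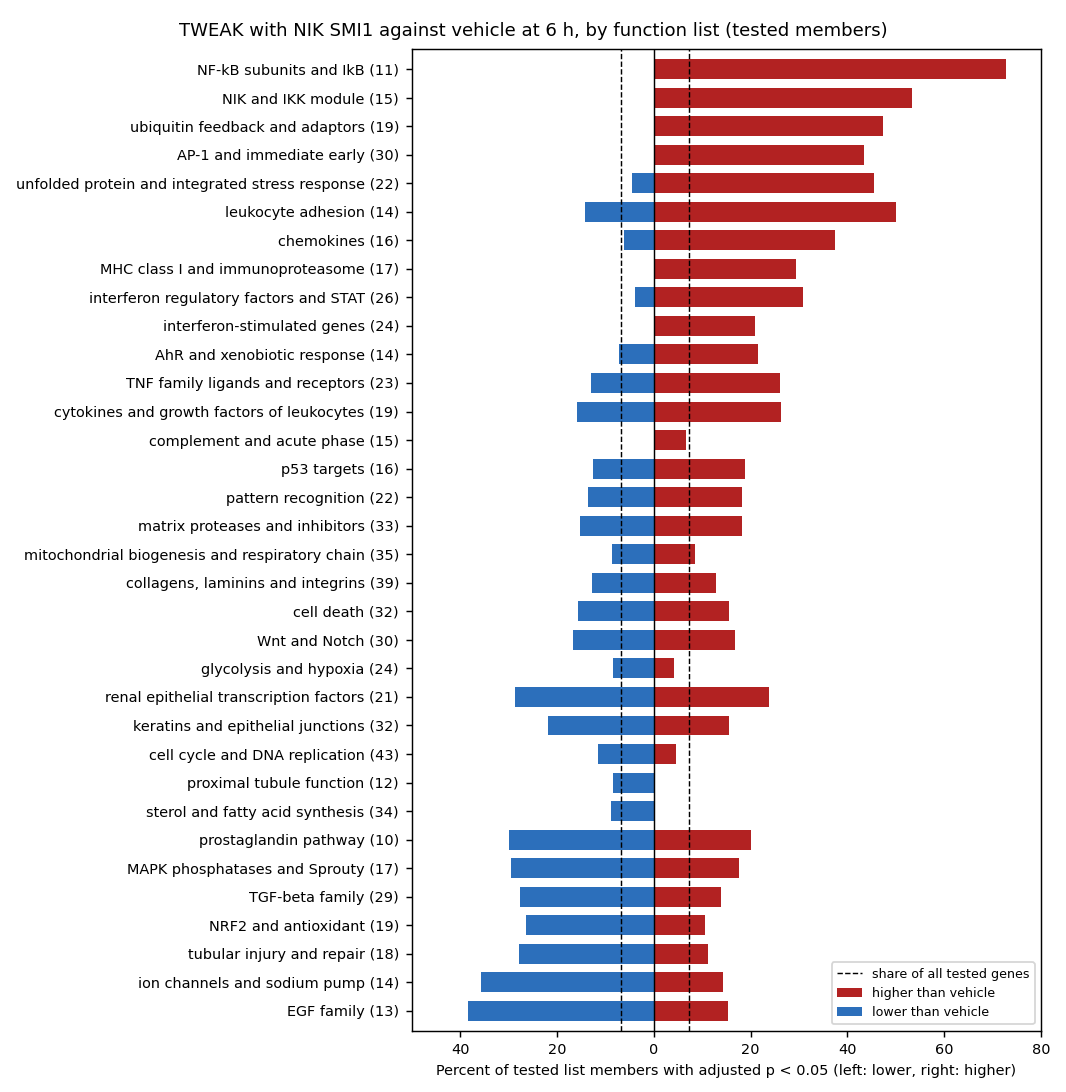
Percent of the tested members of 34 function lists (rows, number tested in brackets) that were higher (red, to the right) or lower (blue, to the left) than with vehicle at 6 h in cells with TWEAK and NIK SMI1. Dashed lines give the shares over all tested genes, 7.23% and 6.7%. The NF-κB, NIK, ubiquitin feedback and AP-1 lists at the top have red bars only, and the EGF family at the bottom has the longest blue bar.

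Immediate early and AP-1 genes, which turn cell surface signals into transcription, were a further list with increases only. Of 30 tested members 13 were higher and 0 lower than with vehicle (median log2 difference 0.15), while against TWEAK alone 7 were higher and 7 lower. Atf3 (11910), a stress-induced transcription factor of the ATF family, was at 24, 24.8 and 25.8 CPM with vehicle, 34.9, 33.9 and 35.9 CPM with TWEAK and 38.6, 34.2 and 36.9 CPM with TWEAK and NIK SMI1. The difference from vehicle was 0.56 ± 0.056 on the log2 scale (adjusted p = 3.42e-08), and the 95% interval of the difference from TWEAK alone was -0.04 to 0.18. Jun, the AP-1 subunit, was at 65.3, 69.2 and 67.5 CPM with vehicle and 80.5, 94.6 and 83.4 CPM with the inhibitor (log2 fold change 0.35 ± 0.049, adjusted p = 7.37e-06), with an interval of -0.17 to 0.027 against TWEAK alone. Fos, its partner, rose by 0.44 ± 0.098 (adjusted p = 0.00245), with an interval of -0.037 to 0.36 against TWEAK alone. Zfp36l1, an mRNA decay factor, rose from 135, 132 and 139 CPM to 207, 218 and 206 CPM (log2 fold change 0.64 ± 0.033, adjusted p = 9e-14) and was slightly lower than with TWEAK alone, by 0.18 (adjusted p = 0.000333).

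In the 7 lists with 0 lower genes against vehicle (NF-κB, NIK, ubiquitin feedback, complement, MHC class I, interferon-stimulated and AP-1 genes), DESeq2 also called 0 lower. At an unadjusted p below 0.05 by edgeR, 2 interferon-stimulated genes and 1 AP-1 list gene were lower, and 0 in the other 5 lists. Leaving out 1 sample gave 1 lower gene in the NF-κB list (without vehicle sample 1), in the interferon-stimulated list (vehicle sample 2) and in the AP-1 list (vehicle sample 3).

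Genes of the unfolded protein and integrated stress responses, in which ATF4 and CHOP adapt amino acid metabolism and survival, were higher in 10 and lower in 1 of 22 tested members (median 0.10). Chac1 (69065), which degrades glutathione, was at 15, 15.2 and 17.2 CPM with vehicle, 20.5, 21.1 and 23.9 CPM with TWEAK and 24.2, 20.6 and 19.7 CPM with TWEAK and NIK SMI1 (log2 fold change against vehicle 0.45 ± 0.075, adjusted p = 0.000103). Trib3, a pseudokinase induced by ATF4, rose by 0.33 ± 0.068, and Ddit3, which encodes CHOP, by 0.31 ± 0.05 (adjusted p = 0.00103 and 7.75e-05). The 95% intervals of the difference from TWEAK alone were -0.15 to 0.15 for Chac1 and -0.019 to 0.26 for Trib3. For Ddit3 all 3 samples with the inhibitor lay above those with TWEAK alone. Of the 22, 2 were higher and 4 lower than with TWEAK alone, and 0 and 3 without TWEAK sample 1. Vldlr, a lipoprotein receptor, rose by 0.52 ± 0.061 (adjusted p = 5.29e-07) and was lower than with TWEAK alone by 0.46 (adjusted p = 1.84e-06). Hspa5, the endoplasmic reticulum chaperone BiP, had a difference of 0.077 from vehicle and did not pass the test (adjusted p = 0.127). The 1 lower gene of this list lost its call without vehicle sample 1 or 2 or NIK SMI1 sample 2 or 3. The CHOP and ATF composite element TGATGNAA was searched on either strand in the 250 bases before a RefSeq start (GRCm38.p6). It was found in 2.44% of the tested genes with a sequence, 3.93% of those that rose and 2.075% of those that fell. Among those that rose more than 2-fold the share was 3.92%. No match was found in the windows of Trib3 and Ddit3. Of the 10 members that rose, 2 hold the element. One is Chac1 on the plus strand at chr2:119350992-119351241, shown 5′ to 3′ with the match in capitals.
Chac1: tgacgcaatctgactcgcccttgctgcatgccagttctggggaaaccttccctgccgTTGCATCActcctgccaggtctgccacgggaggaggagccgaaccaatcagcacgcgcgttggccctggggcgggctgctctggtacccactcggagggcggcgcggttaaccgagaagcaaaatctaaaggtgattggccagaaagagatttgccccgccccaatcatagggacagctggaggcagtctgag
Atf3, listed with the immediate early genes, holds the same 8 letters on the minus strand at chr1:191183334-191183583.
Atf3: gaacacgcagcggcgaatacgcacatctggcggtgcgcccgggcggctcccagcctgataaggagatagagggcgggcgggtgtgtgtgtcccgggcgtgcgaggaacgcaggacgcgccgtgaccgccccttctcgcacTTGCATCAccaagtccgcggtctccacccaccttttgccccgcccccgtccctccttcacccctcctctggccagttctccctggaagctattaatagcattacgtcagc

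**Figure D4:**
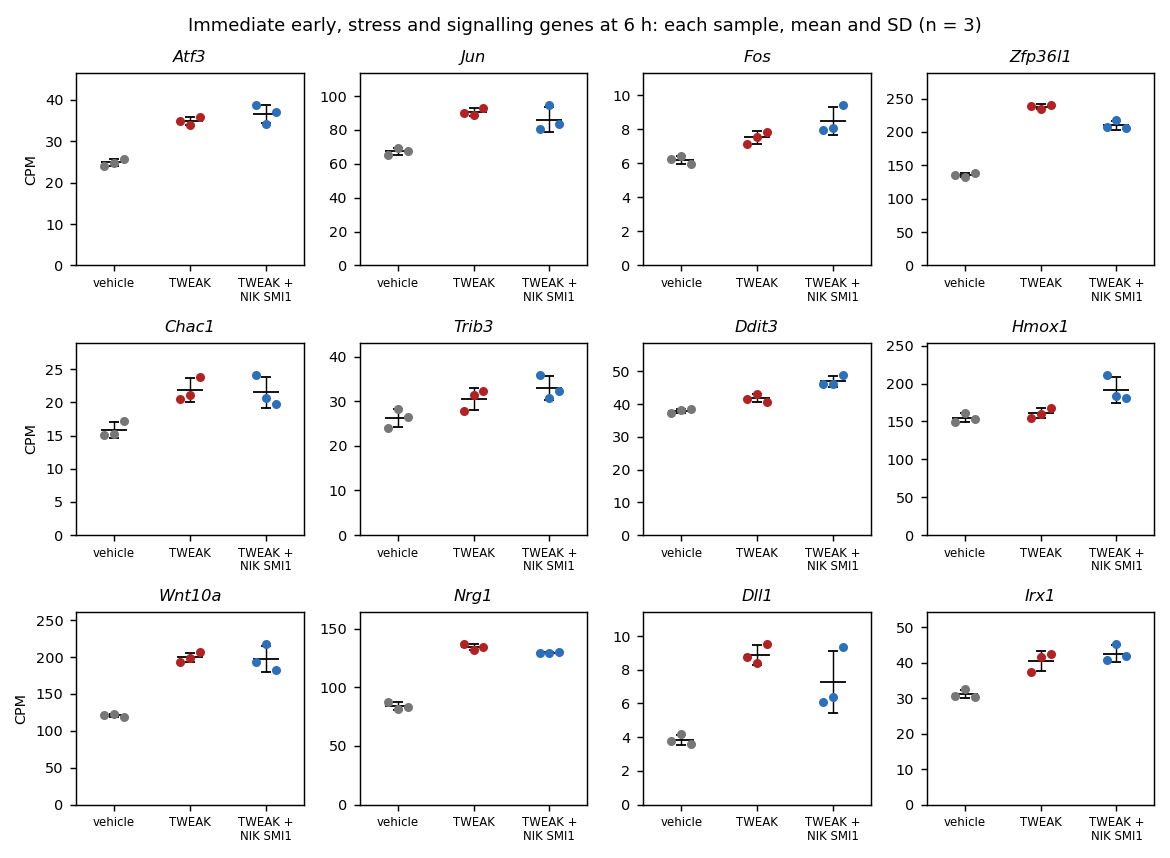
CPM (vertical axes, starting at 0) of 12 immediate early, stress response and signaling genes at 6 h with vehicle (gray), TWEAK (red) and TWEAK with NIK SMI1 (blue). Points are the 3 samples of a group, and black marks give the mean and SD. The blue samples lie above all gray samples in each panel, overlap the red ones for Atf3, Jun, Chac1, Trib3, Wnt10a, Dll1 and Irx1, and lie above all red ones for Fos, Hmox1 and Ddit3.

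MAPK feedback regulators and the EGF family, which act on signaling from growth factor receptors, showed small changes in both directions. Of 17 tested MAPK phosphatase and Sprouty family genes 3 were higher and 5 lower. The number higher was 0 in the fit to the 6 samples alone and 1 without NIK SMI1 sample 2. Dusp6, the phosphatase of ERK, fell from 337, 334 and 339 CPM to 291, 291 and 298 CPM (log2 fold change -0.20 ± 0.027, adjusted p = 5.62e-06). It was lower still with TWEAK alone, at 244, 240.4 and 243 CPM. Of 13 tested EGF family genes 2 were higher and 5 lower. The number lower was 3 without vehicle sample 1, 2 without vehicle sample 3 and 1 without NIK SMI1 sample 1 or 2. Nrg1 (211323), a ligand of ERBB3 and ERBB4, was one of the 2, at 87.6, 81.8 and 82.8 CPM with vehicle, 137, 132 and 134 CPM with TWEAK and 129, 129 and 129.7 CPM with TWEAK and NIK SMI1 (log2 fold change 0.62 ± 0.042, adjusted p = 1.46e-11), with a 95% interval of -0.14 to 0.031 against TWEAK alone. Errfi1, an intracellular inhibitor of EGF receptors, fell by 0.20 ± 0.043 (adjusted p = 0.00225). The receptor gene Egfr had a difference of 0.021 and did not pass the test (adjusted p = 0.828).

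In the Wnt and Notch list 5 of 30 tested members were higher and 5 lower. Wnt10a (22409), a secreted Wnt ligand, was at 122, 123 and 119 CPM with vehicle, 194, 199 and 207 CPM with TWEAK and 193, 217 and 183 CPM with TWEAK and NIK SMI1. Its log2 fold change against vehicle was 0.71 ± 0.049 (adjusted p = 2.66e-11), and the 95% interval of its difference from TWEAK alone was -0.11 to 0.085. The Notch ligand gene Dll1 rose by 0.88 ± 0.13 and Wnt4, a ligand of nephron development, by 0.62 ± 0.10 (adjusted p = 1.35e-05 and 9.9e-05). The Wnt receptor gene Fzd4 fell from 25.5, 22.6 and 24.4 CPM to 16.9, 16.6 and 16.9 CPM (log2 fold change -0.52 ± 0.063, adjusted p = 9.13e-07).

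Of 29 tested TGF-β family genes 8 were lower and 4 higher. Of the 8, 6 encode receptors, SMAD proteins or inhibitors and 2 encode ligands or binding proteins. Fst, the activin antagonist follistatin, fell from 75, 72.1 and 72.3 CPM to 47, 45.2 and 47.9 CPM (log2 fold change -0.65 ± 0.044, adjusted p = 2.01e-11). Grem1, an antagonist of BMP ligands, fell by 0.64 ± 0.11 and the receptor gene Tgfbr1 by 0.43 ± 0.049 (adjusted p = 9.9e-05 and 4.03e-07). The ligand gene Tgfb2 rose by 0.66 ± 0.14 (adjusted p = 0.00156).

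Matrix and protease genes were mixed. 6 of 33 tested proteases and inhibitors were higher and 5 lower, and 5 of 39 collagens, laminins and integrins were higher and 5 lower. In both lists 3 were lower without vehicle sample 1, and in the second also without NIK SMI1 sample 2 or 3. Mmp9 (17395), the gelatinase B gene, was at 3.69, 4.59 and 3.2 CPM with vehicle, 16.6, 15.8 and 17.5 CPM with TWEAK and 6.16, 6.38 and 4.91 CPM with TWEAK and NIK SMI1 (log2 fold change against vehicle 0.64 ± 0.11, adjusted p = 0.000174). Lama3, a laminin chain of epithelial basement membranes, rose from 764, 692 and 719 CPM to 1174, 1107 and 1112 CPM (log2 fold change 0.64 ± 0.039, adjusted p = 2.34e-12). Itgb6, an integrin chain that activates latent TGF-β, rose by 0.58 ± 0.058 (adjusted p = 3.43e-08). Col4a3, a basement membrane collagen, fell by 0.25 ± 0.043 (adjusted p = 0.000123). The protease gene Adam8 and the collagen receptor gene Itga2 rose by 0.25 ± 0.042 and 0.25 ± 0.042 (adjusted p = 8.86e-05 and 9.72e-05) and were lower than with TWEAK alone by 0.46 and 0.41 (adjusted p = 4.14e-09 and 4.6e-08).

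Epithelial and renal functions showed more decreases than increases. Of 18 tubular injury and repair genes 2 were higher and 5 lower, of 32 keratin and junction genes 5 were higher and 7 lower, of 14 ion channel and sodium pump genes 2 were higher and 5 lower, and of 21 renal transcription factor genes 5 were higher and 6 lower. In the injury list 1 was higher without NIK SMI1 sample 1 and 3 were lower without NIK SMI1 sample 2. Pdgfb (18591), a mitogen for mesenchymal cells, rose from 254, 259 and 256 CPM to 616, 648 and 605 CPM (log2 fold change 1.28 ± 0.034, adjusted p = 3.83e-20). Cdh6, a cadherin of the developing nephron, fell by 0.44 ± 0.047, and Tjp1, the tight junction scaffold ZO-1, by 0.29 ± 0.04 (adjusted p = 1.32e-07 and 5.14e-06). Cldn2, the cation pore of the proximal tubule, fell from 2.82, 3.21 and 3.82 CPM to 2.06, 1.89 and 1.41 CPM (adjusted p = 0.00495). In the keratin and junction list the epithelial-mesenchymal transition factors Snai1 and Zeb1 rose by 1.04 and 0.48 (adjusted p = 0.00683 and 0.0191 by edgeR). The call for Zeb1 was lost in the fits to 6 or 9 samples and without vehicle sample 1 or 2 or NIK SMI1 sample 3. Elf3, an epithelial ETS factor, fell from 61.9, 68.7 and 67.3 CPM to 41.1, 43.4 and 47.6 CPM (log2 fold change -0.59 ± 0.057, adjusted p = 1.69e-08). Of other developmental transcription factors, Sox11 and Irx1 rose by 0.52 ± 0.045 and 0.45 ± 0.059, and Foxc1 fell by 0.46 ± 0.078 (adjusted p = 2.27e-09, 4.24e-06 and 0.000124). Kcnk5, an acid-sensitive potassium channel, fell by 0.55 ± 0.064, and the chloride channel gene Cftr rose by 0.90 ± 0.11 (adjusted p = 5.13e-07 and 8.17e-07). Only 12 of 32 genes of proximal tubule function had enough reads to be tested, and 0 rose and 1 fell. That gene was Slc4a4, the basolateral sodium bicarbonate cotransporter, which fell by 0.21 ± 0.047 (adjusted p = 0.00222). In this list 2 were lower without vehicle sample 1 or 2 or NIK SMI1 sample 3, and DESeq2 and unadjusted edgeR p-values below 0.05 both gave 0 higher.

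Some functions were close to the background. In sterol and fatty acid synthesis 0 of 34 tested genes were higher and 3 lower than with vehicle, with a median log2 difference of 0.02. In the same list the median with TWEAK alone was -0.24, and 25 of the 34 genes were higher with the inhibitor than with TWEAK alone and 0 lower. Against vehicle DESeq2 also called 0 higher, 2 had an unadjusted edgeR p below 0.05, and 1 was higher without NIK SMI1 sample 1. The number lower than with vehicle was 1 without vehicle sample 1 or NIK SMI1 sample 2. Scd2, a fatty acid desaturase, was at 698, 642 and 666 CPM with vehicle, 469, 476 and 481 CPM with TWEAK and 622, 608 and 597 CPM with TWEAK and NIK SMI1, a small difference from vehicle (log2 fold change -0.13 ± 0.032, adjusted p = 0.00439) that was lost when only the 6 samples were fitted (adjusted p 0.000676 to 0.0634 over all alternatives by edgeR or DESeq2). Fasn, the fatty acid synthase gene, had a difference of 0.051 from vehicle and did not pass the test (adjusted p = 0.608). Among cell cycle genes 2 of 43 were higher and 5 lower, among mitochondrial genes 3 of 35 were higher and 3 lower, and among genes of glycolysis and hypoxia 1 of 24 was higher and 2 lower. These counts were unsteady. Without NIK SMI1 sample 2, 0 cell cycle genes were higher and 3 lower and 0 mitochondrial genes were higher or lower. Without vehicle sample 3, 0 cell cycle and 1 mitochondrial gene were higher, and without NIK SMI1 sample 1 the cell cycle list had 1 higher gene. The mitochondrial list had 0 or 1 lower genes without any single sample, and the glycolysis list 1 without NIK SMI1 sample 3. Cyclin D2, encoded by Ccnd2, fell by 0.21 ± 0.031 (adjusted p = 2e-05), and Hif1a, the oxygen-regulated transcription factor, by 0.27 ± 0.046 (adjusted p = 9.62e-05).

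The remaining lists held single genes of note. Among 32 cell death genes 5 were higher and 5 lower, and the number lower was 2 or 3 without any single sample of the 6. The survival gene Bcl2 fell by 0.25 ± 0.045 on the log2 scale (adjusted p = 0.000211). Of 16 p53 pathway genes 3 were higher and 2 lower, with 5 higher without NIK SMI1 sample 1 and 1 lower without that sample, NIK SMI1 sample 2 or vehicle sample 3. Plk2, a kinase of the stress response, rose by 0.45 ± 0.033, Trp53 itself by 0.27 ± 0.033 and Phlda3, an inhibitor of AKT, by 0.25 ± 0.04 (largest adjusted p = 5.25e-05). Trp53inp1 was 1 of the 2 lower genes. Of 14 xenobiotic response genes 3 were higher and 1 lower, with 5 higher without NIK SMI1 sample 3. The 3 encode drug efflux pumps, as does the 1 lower gene, Abcc4. Abcb1a, a P-glycoprotein gene, rose from 6.04, 5.76 and 6.34 CPM to 12.6, 12 and 13.1 CPM (log2 fold change 1.05 ± 0.11, adjusted p = 4.34e-08), its paralog Abcb1b by 0.58 ± 0.043 and Abcg2 by 0.36 ± 0.053 on the log2 scale (adjusted p = 1.22e-10 and 1.85e-05). Abcb1a and Abcb1b are close paralogs, so reads shared between them make their single levels less certain. Of 19 NRF2 and antioxidant genes 2 were higher and 5 lower, with 1 higher without NIK SMI1 sample 1. Of 10 prostaglandin pathway genes 2 were higher and 3 lower. The number higher was 0 or 1 without any single sample of the 6, and 0 by DESeq2, and the number lower was 1 without NIK SMI1 sample 2. Pla2g4a, the phospholipase that releases arachidonic acid, fell by 0.27 ± 0.041 (adjusted p = 2.77e-05). Hmox1, heme oxygenase 1, was at 149, 162 and 153 CPM with vehicle, 155, 160.1 and 168 CPM with TWEAK and 212, 183 and 181 CPM with TWEAK and NIK SMI1. It was higher with the inhibitor than with vehicle (log2 fold change 0.31 ± 0.05, adjusted p = 4.96e-05) and than with TWEAK alone (0.26, adjusted p = 0.000654). Osgin1, an oxidative stress response gene, fell by 0.37 ± 0.049 (adjusted p = 3.66e-06).

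Few genes differed from both other groups in the same direction by more than 1.5-fold, in 2 comparisons that share the samples with TWEAK and NIK SMI1. In all, 3 genes were higher and 2 lower with TWEAK and NIK SMI1 than with vehicle and than with TWEAK alone. Gm34823, an uncharacterized locus, was at 1.28, 1.3 and 1.19 CPM with vehicle, 2.15, 2.45 and 2.25 CPM with TWEAK and 3.64, 3.87 and 3.05 CPM with TWEAK and NIK SMI1 (adjusted p = 2.12e-07 against vehicle and 0.006 against TWEAK). Fam71f1 and the small nucleolar RNA gene Snord95 were the other 2 that were higher, and Zcwpw1 and Entrez Gene 102633864 were lower. These 4 had adjusted p between 0.00169 and 0.039 against vehicle. The calls against vehicle for Fam71f1 were lost without vehicle sample 2 or 3 or NIK SMI1 sample 2, those for Snord95 without vehicle sample 1 or 2 or NIK SMI1 sample 1 or 3, and those for Zcwpw1 without vehicle sample 1 or NIK SMI1 sample 3 (adjusted p 0.0226 to 0.225, 0.0039 to 0.155 and 0.0171 to 0.113 over all alternatives by edgeR or DESeq2). Those against TWEAK were lost for Fam71f1 without NIK SMI1 sample 2, for Entrez Gene 102633864 without TWEAK sample 1 or NIK SMI1 sample 1 or 2, for Snord95 without TWEAK sample 1 or 3 or NIK SMI1 sample 1 or 3, and for Zcwpw1 without TWEAK sample 1 or 2 or NIK SMI1 sample 3. Reads of Snord95 may come from the transcript that hosts it.

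The same contrast was made at 24 h in 6 other samples. At 24 h 1252 genes (8.07%) were higher and 1525 (9.83%) lower with TWEAK and NIK SMI1 than with vehicle. Of the 1122 genes that were higher at 6 h, 615 were higher at 24 h as well, 54.8% of the 6 h list and 49.1% of the 24 h list. Of the 1040 that were lower, 578 were lower at 24 h, 55.6% and 37.9% of the lists. 10 genes higher at 6 h were lower at 24 h, and 5 lower at 6 h were higher at 24 h. Of the 75 genes raised more than 2-fold at 6 h, 54 (72.0%) were higher at 24 h, and of the 16 lowered more than 2-fold, 7 were lower. Ccl9, Nfkb2 and Map3k14 were at 3.37, 1.32 and 1.27 on the log2 scale at 24 h (adjusted p = 2.61e-19, 2.3e-19 and 1.34e-15), and Wnt10a and Chac1 at 0.71 and 0.33 (adjusted p = 1.03e-11 and 0.00139). In the 24 h samples the islet genes differed between the groups, with a summed level of 19.1 to 25.3 CPM with vehicle and 0.153 to 0.284 CPM with TWEAK and NIK SMI1, and all 8 tested islet genes were among those lower. With TWEAK alone at 24 h the summed level was 0.312 to 18.8 CPM, so it also varied within that treatment group. The part of the islet genes in the other differences at 24 h was not tested.

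The difference between the responses at 24 h and at 6 h was tested as an interaction. It was positive in 136 genes (0.876%) and negative in 311 (2%). The positive number was 81 and 80 without NIK SMI1 sample 2 or 3 of 24 h, and the negative number 202 without NIK SMI1 sample 2 of 6 h and 201 without NIK SMI1 sample 3 of 24 h. The response of Mmp9 was larger at 24 h, when it was at 1.83, 1.88 and 1.81 CPM with vehicle and 10.3, 11 and 10.8 CPM with TWEAK and NIK SMI1 (difference between the responses 1.89 on the log2 scale, adjusted p = 4.52e-08). Ngfr likewise had a larger response at 24 h (difference 1.31, adjusted p = 2.45e-07). Lcn2, the injury marker NGAL, did not pass the test at 6 h, with 364, 384 and 357 CPM and 370.4, 393 and 353 CPM (adjusted p = 0.91), but was lower at 24 h, with 134, 141 and 144 CPM and 71.7, 53.6 and 54.8 CPM (difference between the responses -1.22, adjusted p = 2.94e-09). Ceacam1 and Slc4a4 fell further at 24 h than at 6 h (difference -0.94 and -0.46, adjusted p = 2.99e-05 and 6.52e-05). For Map3k14, Birc3 and Atf3 the difference between the responses was -0.014, -0.045 and -0.037 and did not pass the test (adjusted p = 0.967, 0.921 and 0.891).

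**Figure D5:**
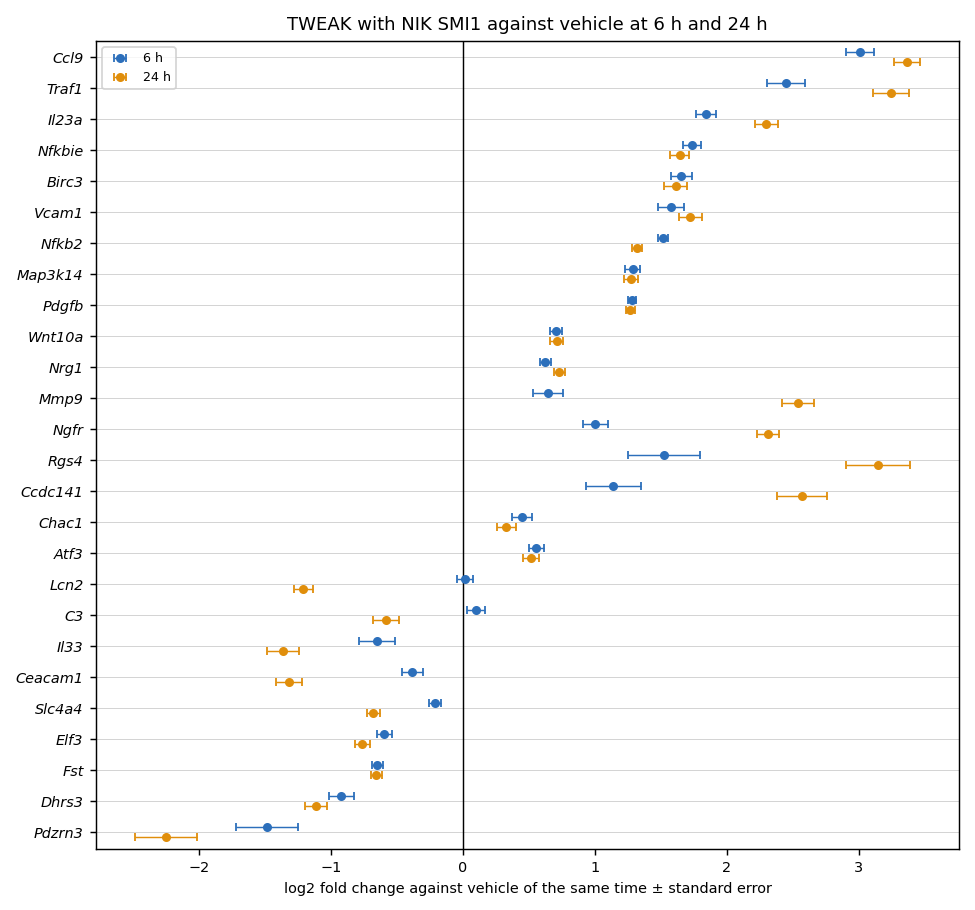
log2 fold change of TWEAK with NIK SMI1 against the vehicle samples of the same time (horizontal axis) for 26 genes (rows) at 6 h (blue) and at 24 h (orange). Points are edgeR estimates and bars are standard errors, and the 2 times share no sample. The NF-κB genes and Wnt10a lie close together at both times, Mmp9, Ngfr, Rgs4 and Ccdc141 are further right at 24 h, and Lcn2, C3, Il33 and Ceacam1 are further left.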

How the data were processed

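RNA-seq was performed in 18 samples, 3 in each of 6 groups. The deposited files hold the authors' raw read counts per Entrez gene and RPKM values, which they made by aligning reads with GSNAP within HTSeqGenie to NCBI build 37. Only the deposited count columns were analysed here. RPKM values divide the count by gene length and depth and were not used. The labels and the study's methods differ on sequencer and read length, and the library kit does not mark strand, so overlapping genes cannot be told apart by strand. Symbols came from RefSeq by Entrez ID, which matched 31049 of 36528 IDs. Of the tested genes 960 had no symbol.

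Genes with more than 10 reads in at least 4 samples (15521) were tested with edgeR 4.0.16 in R 4.3.3 (TMM scaling, glmQLFit and glmQLFTest) on all 18 samples by group, with Benjamini-Hochberg adjustment over all tested genes and a threshold of 0.05. Standard errors were taken as the absolute log2 fold change over the square root of F. A fit to simulated counts was checked first. Replicate pairs differed beyond sampling noise, with a chi-square per gene of 3.38 to 10.0. It was 9.26 and 10.0 for the pairs with vehicle sample 1 and 3.38 to 5.08 for the other pairs. DESeq2 1.42.0, its size factors, other filters, fits to 6 or 9 samples and fits leaving out each sample were alternatives. The labels and series notes name DESeq2 among the submitters' tools.

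The comparison, the function lists and the genes were chosen with earlier results of these data known. Named genes were the 10 largest called rises and falls with groups that did not overlap and at least 1 CPM, up to 4 called and 2 uncalled genes per list, core NF-κB pathway and target genes, genes called at 1.5-fold against both vehicle and TWEAK, and up to 6 genes in each direction of the interaction. Some genes this rule names are not reported here. Sample numbers follow the order of deposit and pair nothing. Motifs were searched in RefSeq promoter sequences of GRCm38.p6.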

Additional observations from a re-analysis of the deposited data

Results flagged for a closer look

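16 genes named above or below had a response to TWEAK with NIK SMI1 that differed between 24 h and 6 h by the interaction test (edgeR, adjusted p below 0.05). The values are the log2 response at 24 h minus that at 6 h. The responses of Mmp9 (1.89), Ngfr (1.31), Ccdc141 (1.43) and Tmprss11d (1.37) were more positive at 24 h, and those of Lcn2 (-1.22), Ceacam1 (-0.94), Slc4a4 (-0.46) and Tsnaxip1 (-2.14) more negative. These 8 kept adjusted p below 0.05 in every alternative that gave one.

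Rgs4, a regulator of G protein signaling, had a difference of 1.62 (adjusted p = 0.0224), and the call was lost without vehicle sample 1 or NIK SMI1 sample 1 of 6 h or vehicle sample 3 of 24 h (adjusted p = 0.0819, 0.0621 and 0.0706). B3galt1 (1.47, adjusted p = 0.0291), Gm7846 (1.66, adjusted p = 0.0345) and Cbr2 (-2.12, adjusted p = 0.0463) lost the call without any of 8, 8 and 9 of the 12 samples, with adjusted p up to 0.0842, 0.109 and 0.158. Few of the 15521 genes had such a difference, 0.876% positive and 2% negative.

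The hormone genes Ins2 (-11.21), Chga (-6.68), Scg2 (-6.65) and Iapp (-6.43) had the most negative differences. Ins2, the insulin gene, was at 10.1, 7.97 and 7.94 CPM with vehicle and 9.49, 7.94 and 7.9 CPM with TWEAK and NIK SMI1 at 6 h, and at 9.98, 8.13 and 7.14 CPM and 0, 0 and 0 CPM at 24 h. The fitted value for Ins2 depends on the prior count, since 3 samples are at 0, and it is no bound. The summed islet genes moved with the 24 h samples as given in the report, and their part in other differences was not tested.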

How the results depend on the processing

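Among 170 genes tested against vehicle at 6 h, 144 passed, 114 of them in every alternative, and 0 changed direction while called. 30 lost the call in at least 1 alternative. In the fit to the 6 samples alone 21 lost it, among them Zeb1, Cd40, Cxcl5, Tlr4, Galnt18, Gprin3, Mir2139, Fam71f1, Snord95 and Zcwpw1. The number of genes higher than vehicle was 1122, with 662 in the fit to the 6 samples alone and 778 to 1180 on leaving out 1 sample. The number lower was 1040, with 559 in the 6 samples alone and 623 to 1144 on leaving out 1 sample, the lowest values being those without NIK SMI1 sample 2 (623) and vehicle sample 1 (676). The number lower by more than 2-fold was 16, against 9 with DESeq2, 28 without a filter on low counts and 10 in the 6 samples alone, and 12 to 23 on leaving out 1 sample. Against TWEAK at 6 h, 829 genes were higher and 488 to 861 on leaving out 1 sample, the lowest without TWEAK sample 1. The interaction had 136 positive genes, 257 without a filter, and 80 to 176 on leaving out 1 sample, 311 negative genes with 201 to 326, and 42 negative by more than 2-fold with 26 to 40. Several list counts also fell in the fit to the 6 samples alone. TNF family genes higher went from 6 to 2, and MAPK feedback genes higher from 3 to 0. EGF family genes lower went from 5 to 2 and ion channel genes lower from 5 to 3. Sterol and fatty acid genes lower went from 3 to 0, and mitochondrial genes from 3 higher and 3 lower to 0 and 0. The NIK and AP-1 lists kept 7 and 12 higher genes of 8 and 13. The cause of these moves was not tested, except that fits to fewer samples have fewer degrees of freedom by construction. No paired analysis was possible because the labels give no replicate numbers. The lowest depth, 18040966 reads in NIK SMI1 sample 3, limits genes near 0.166 CPM, and these depths cover counting error only.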
